A study of Mus musculus with 12 samples.

Results

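Expression of 10 genes of antibody recognition and of the kinase pathway behind it was followed in mice with and without sphingosine kinase 2 (SphK2) on a Western or a control diet. The genes were taken by symbol from the authors' panel and are the Fc receptor genes Fcgr1, Fcgr2b, Fcgr3, Fcgr4 and Fcgrt, the receptor chain gene Fcer1g, and Syk, Btk, Blnk and Prkcd. They are 10 of the 547 genes measured, and all 10 passed the filter on low values, which asked for 20 or more normalized counts on average.

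The study compared genotype and diet in male mice of the C57BL6-NJ background, with 3 mice in each of 4 groups. The KO Western-diet mice had a constitutive SphK2 knockout, received Western diet and sugar water, and were labelled 221, 217 and 252 days old. The WT Western-diet mice had the same feeding and were labelled 226, 226 and 232 days old. The KO control-diet mice ate a control diet with normal water and were labelled 259, 253 and 250 days old. The WT control-diet mice had that same diet and were labelled 231, 231 and 232 days old. Feeding began at 12 to 18 weeks of age and lasted 16 weeks, per the labels' protocols. The labelled ages of the KO control-diet mice and of KO Western-diet replicate 3 are higher than these times allow if they are ages at the end of feeding, so the labels conflict. The knockout lacks SphK2 in every tissue and not in one cell type. The feeding models early metabolic dysfunction-associated steatohepatitis, an inflamed fatty liver. Liver is named as the tissue only by the title of the series.

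Fc receptors bind the constant part of antibodies on the surface of leukocytes. The activating mouse receptors encoded by Fcgr1, Fcgr3 and Fcgr4 signal through the shared gamma chain encoded by Fcer1g, which carries an immunoreceptor tyrosine-based activation motif (ITAM). The phosphorylated motif recruits the tyrosine kinase Syk, and the adaptor Blnk, the kinase Btk and protein kinase C delta (Prkcd) act downstream of Syk in myeloid or B cells. Fcgr2b encodes the inhibitory receptor, which in mouse liver is abundant on sinusoidal endothelial cells, and Fcgrt encodes the neonatal Fc receptor (FcRn), which spares IgG and albumin from degradation.

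Of the 10 genes, 4 lie within 274 kb of chromosome 1 in the mouse build GRCm38.p6: Fcgr2b at chr1:170960558-170976071, Fcgr4 at chr1:171018926-171029761, Fcgr3 at chr1:171051169-171065915 and Fcer1g at chr1:171229572-171234349. Fcgr1 lies apart from them at chr3:96282909-96293969 and Fcgrt at chr7:45092993-45103822. Syk is at chr13:52582610-52648792, Btk at chrX:134542334-134583628, Blnk at chr19:40928927-40994221 and Prkcd at chr14:30595353-30626414. Promoters from RefSeq were found for all 10 genes, in 13 entries, and the 250 bases before each listed start were searched on both strands. The core recognised by the myeloid factor PU.1, searched as GAGGAAG, was in the Fcgr1, Fcgr3 and Fcgr4 promoters and in no entry of the other 7 genes. Of all 32851 promoter entries 3486 held it (10.6%). An interferon gamma activated site, searched as TTCNNNGAA, was in the Fcgr1 promoter alone among the 10 genes, and 7.02% of all entries held it. The 2 motifs did not overlap each other. The 3 activating receptors shared their pattern of RNA levels with Fcer1g, Syk, Btk, Blnk and Prkcd, in which no PU.1 core was found. Fcgr2b and Fcgrt did not share it and held no core either. A link of motif to pattern was not tested. The sequences just before the start are shown for the 3 activating receptors and for Fcgr2b, which lies beside Fcgr3 and Fcgr4 on the chromosome. They run 5′ to 3′ on the gene's strand and capitals mark motif matches, the PU.1 core reading as its reverse complement. Fcgr1 is chr3:96293970-96294089 on the minus strand, with the PU.1 core at position -56 and the interferon site at -109 from the start. Fcgr4 is chr1:171018806-171018925 on the plus strand with the core at -23. Fcgr3 is chr1:171059395-171059424 on the minus strand with the core at -16, shown for 30 bases because this start lies inside the span of the gene. Fcgr2b is chr1:170976072-170976191 on the minus strand. A match is a description of letters and not of a bound site.
Fcgr1: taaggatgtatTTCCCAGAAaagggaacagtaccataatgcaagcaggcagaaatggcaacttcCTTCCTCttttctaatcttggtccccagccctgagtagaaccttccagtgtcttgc
Fcgr4: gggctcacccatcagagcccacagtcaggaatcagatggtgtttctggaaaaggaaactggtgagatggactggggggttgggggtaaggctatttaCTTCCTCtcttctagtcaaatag
Fcgr3: agagagtccatttcCTTCCTCtttttgtag
Fcgr2b: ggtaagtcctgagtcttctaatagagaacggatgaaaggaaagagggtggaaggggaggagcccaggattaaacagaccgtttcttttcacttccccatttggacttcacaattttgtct

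RNA was counted with barcoded NanoString probes. Levels are normalized counts on the scale of the authors' deposited values, and they are not per length, so levels of different genes are not compared. Whole counts recovered from those values summed to 440842 to 643638 per library, and the lowest recovered counts of any of the 10 genes were 20 for Blnk and 24 for Btk. The panel holds neither Sphk2 nor Sphk1, and the RNA therefore gives no check of the genotype. On the first principal component of the 453 tested genes, which held 58.9% of the variance, the KO Western-diet libraries lay between -11.6 and -10.3. WT Western-diet replicates 1 and 3 lay at -5.29 and -1.13, and the control-diet libraries of both genotypes between 3.76 and 6.65. WT Western-diet replicate 2 lay at 5.59, among the control-diet libraries, so counts of genes that passed are also given without it where they rest on it. On the second component KO control-diet replicate 2 had the highest score, 9.0, and its normalized counts summed to 748718 against 473628 to 604594 in the other libraries. All group assignments rest on the authors' workbook, because another deposited table of the same values has its columns shifted by 1 animal.

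**Figure D1:**
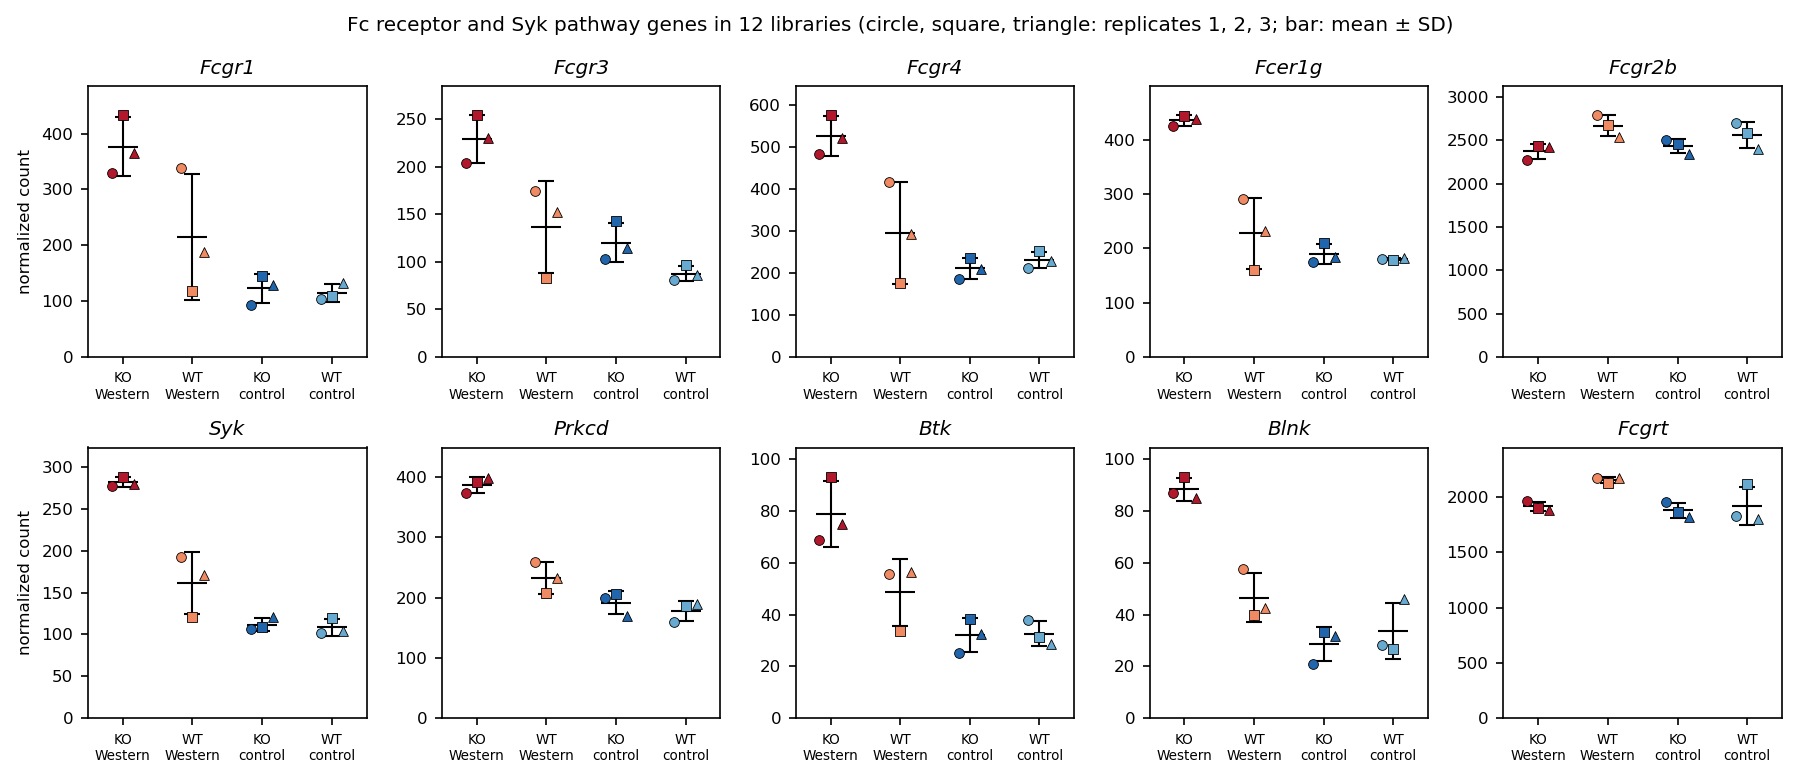
Normalized counts (y axis, from 0) of the 10 genes in the 12 libraries, with 1 panel per gene and 4 groups on the x axis. Points are mice and bars are means ± SD (n = 3 per group). In the panels of Fcgr1, Fcgr3, Fcgr4, Fcer1g, Syk, Prkcd, Btk and Blnk the KO Western-diet mean is the highest, while Fcgr2b and Fcgrt span 1.23-fold and 1.21-fold from the lowest to the highest library.

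The difference between knockout and wild type on the Western diet was the question named by the title of the series. On that diet 8 of the 10 genes were higher in knockout mice than in wild-type mice and none was lower, at an adjusted p under 0.05 by limma. Of all 453 tested genes 35.5% passed in either direction, 32.2% higher and 3.31% lower. The median log2 difference was 0.82 over the 10 genes and 0.26 over all tested genes. The 8 were the activating receptors, their gamma chain, and Syk, Btk, Blnk and Prkcd. Fcgr2b and Fcgrt were the exceptions.

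Fcer1g, the gamma chain shared by the activating receptors, had 425, 444 and 438 normalized counts in KO Western-diet mice, against 291, 160 and 232 in WT Western-diet mice. The groups did not overlap, and the knockout mice varied little (436 ± 9.75 against 228 ± 65.6, SD, n = 3 each). The log2 difference was 0.98 (SE 0.17, adjusted p = 0.00345, limma), or 1.97-fold.

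Fcgr4, the activating receptor for IgG2a and IgG2b on monocytes and macrophages of the mouse, had 482, 576 and 520 normalized counts in KO Western-diet mice, against 416, 175 and 293 in WT Western-diet mice. Every knockout library was above every wild-type one, and the log2 difference was 0.91 (SE 0.24, adjusted p = 0.015, limma). Fcgr3, an activating receptor of lower affinity, had 204, 254 and 230 normalized counts in KO Western-diet mice, against 175, 82.6 and 152 in WT Western-diet mice. These groups were also apart, with a log2 difference of 0.81 (SE 0.24, adjusted p = 0.0221, limma).

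Fcgr1, the receptor that binds single IgG molecules with high affinity, had 329, 433 and 366 normalized counts in KO Western-diet mice, against 338, 118 and 187 in WT Western-diet mice. WT Western-diet replicate 1 was above KO Western-diet replicate 1, so for this gene the groups overlapped. The log2 difference of 0.93 (SE 0.30, adjusted p = 0.0323, limma) was as large as that of Fcgr4, with a wider error.

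Syk, the kinase that binds the phosphorylated ITAM, had 277, 288 and 280 normalized counts in KO Western-diet mice, against 193, 120 and 171 in WT Western-diet mice. The knockout libraries lay close together and all above the wild type, with a log2 difference of 0.83 (SE 0.16, adjusted p = 0.0044, limma). Prkcd, a protein kinase C without need of calcium, had 373, 392 and 399 normalized counts in KO Western-diet mice, against 259, 207 and 233 in WT Western-diet mice. Its log2 difference of 0.74 (SE 0.12, adjusted p = 0.00317, limma) had the smallest adjusted p of the 10 genes.

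Btk, the kinase downstream of Syk that is mutated in X-linked agammaglobulinaemia, had 68.7, 93.3 and 74.9 normalized counts in KO Western-diet mice, against 55.7, 33.7 and 56.6 in WT Western-diet mice. Blnk, the adaptor that links Syk to Btk in B cells, had 86.8, 93.3 and 85.0 in KO Western-diet mice, against 57.6, 39.8 and 42.5 in WT Western-diet mice. Both were apart between the genotypes, with log2 differences of 0.71 for Btk (SE 0.24, adjusted p = 0.0349, limma) and 0.93 for Blnk (SE 0.24, adjusted p = 0.0155, limma). In bulk RNA a change in the number of cells of a type and a change in RNA per cell cannot be told apart, for these genes and for all the others.

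Fcgr2b, the inhibitory receptor, had 2268, 2430 and 2420 normalized counts in KO Western-diet mice, against 2789, 2678 and 2543 in WT Western-diet mice. Fcgrt had 1960, 1900 and 1878 in KO Western-diet mice, against 2167, 2120 and 2173 in WT Western-diet mice. In both genes every knockout library was below every wild-type library, as in 8.17% of all tested genes. The log2 differences were small and did not pass, -0.17 for Fcgr2b (SE 0.071, adjusted p = 0.0822, limma) and -0.17 for Fcgrt (SE 0.073, adjusted p = 0.0872, limma). Counted the same way, 7 of the 10 genes lay wholly higher in the knockout, against 41.7% of all tested genes. The probe positions were not used here, so how far the probes for Fcgr2b and Fcgr3, which are closely related in their extracellular parts, tell the 2 transcripts apart was not tested.

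WT Western-diet replicate 2 had the lowest level of its group for all 8 genes other than Fcgr2b and Fcgrt. Without it 5 of the 10 genes were higher, with 20.8% of all tested genes passing. Fcer1g (log2 difference 0.74, adjusted p = 0.00339, limma), Prkcd (0.65, 0.00534), Syk (0.63, 0.00595), Fcgr4 (0.59, 0.0261) and Blnk (0.82, 0.0499) passed. Fcgr1 (0.57, 0.127), Fcgr3 (0.48, 0.0538) and Btk (0.47, 0.146) kept a positive difference and did not pass. Without KO Western-diet replicate 2, with 18.5% of all tested genes passing, the genes that passed were Fcer1g, Syk and Prkcd (3 of 10). These 3 passed without any single one of the 12 libraries. Without KO Western-diet replicate 3, with 25.6% of all tested genes passing, 5 passed and Fcgr1, Fcgr3 and Btk did not. Fcgr1 did not pass without KO Western-diet replicate 1 (adjusted p = 0.0527, limma) or WT Western-diet replicate 3 (0.0815) either. Fcgr1, Fcgr3 and Btk also missed the threshold in a fit of these 2 groups alone, in which 30.2% of all tested genes passed, with adjusted p-values of 0.0777, 0.0624 and 0.0637 (limma), where Fcgrt passed as lower (0.0461).

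How the libraries are scaled to each other moved these values, because the median gene of the panel was itself higher in the knockout by 0.26 on the log2 scale under the authors' scaling. When libraries were recentred on the median ratio to the mean library, that median was 0.01. Then 5 of the 10 genes were higher and 2 lower, against 15.2% and 9.49% of all tested genes. Fcgr2b was at -0.42 and Fcgrt at -0.42 (adjusted p = 0.0119 for each, limma), and Fcgr1, Fcgr3 and Btk did not pass. Quantile normalization gave 4 higher and 2 lower, against 9.27% and 11.9%. With each library recentred on its own median the median gene was at -0.30, and 1 gene, Fcer1g, was higher and 2 were lower, against 5.74% and 28.7%. The 8 genes stayed above 0 and Fcgr2b and Fcgrt below 0 under all 4 scalings.

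**Figure D2:**
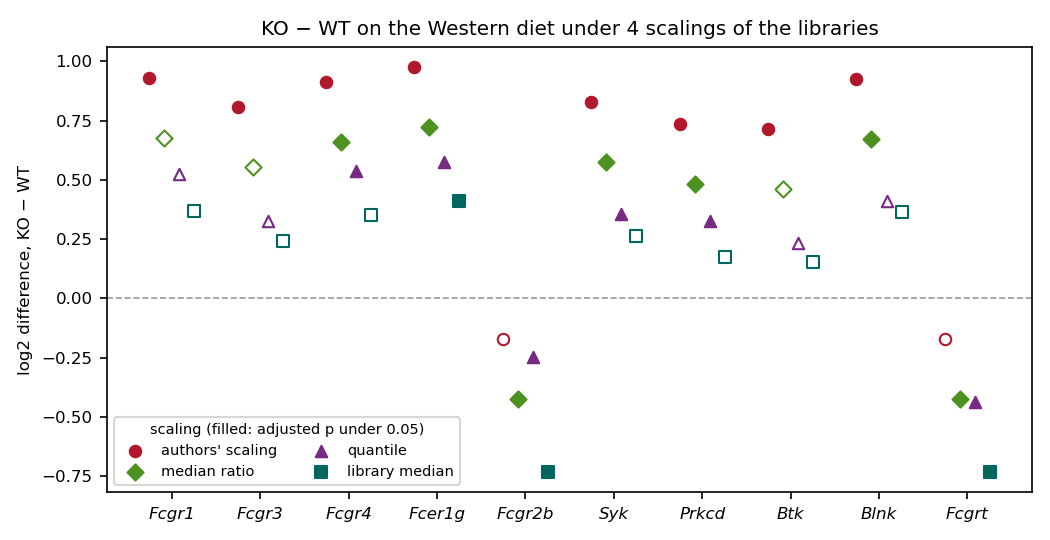
Log2 difference of KO minus WT on the Western diet (y axis) for each of the 10 genes (x axis) under 4 ways of scaling the libraries. Filled symbols have an adjusted p under 0.05 (limma). The other scalings give a lower value than the authors' scaling for all 10 genes, and in each of the 4 Fcgr2b and Fcgrt lie below 0 and the other 8 genes above it.

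A ratio of 2 genes within a library is unchanged by any scaling that multiplies the library by 1 factor, which holds for the authors' scaling and both recentrings and not for quantile normalization. Per 100 counts of Fcgr2b, Fcgr4 had 21.2, 23.7 and 21.5 counts in KO Western-diet mice, against 14.9, 6.55 and 11.5 in WT Western-diet mice. Fcgr1 had 14.5, 17.8 and 15.1 per 100 counts of Fcgr2b in KO Western-diet mice, against 12.1, 4.42 and 7.36 in WT Western-diet mice. Fcgr3 had 8.98, 10.5 and 9.51 in KO Western-diet mice, against 6.27, 3.08 and 5.99 in WT Western-diet mice. The activating receptors were higher relative to the inhibitory one in every knockout library on the Western diet, Fcgr1 included. Fcer1g stood at 18.4 ± 0.34 per 100 counts of Fcgr2b in KO Western-diet mice and at 8.51 ± 2.29 in WT Western-diet mice (SD, n = 3 each). Fcgrt kept close to Fcgr2b, with 80.7 ± 4.92 counts per 100 of Fcgr2b in KO Western-diet mice and 80.8 ± 4.12 in WT Western-diet mice. The ratios were not tested. For the 3 activating receptors and Fcer1g the lowest KO Western-diet ratio was above the highest WT Western-diet ratio. WT Western-diet replicate 2 had the lowest of these ratios in its group, so leaving it out could not change this. Fcgr2b itself was lower in every KO than in every WT Western-diet library, which raises each ratio in the knockout. The levels of Fcgr1 overlapped before division. How many of all tested genes have ratios apart in this way was not counted, and 41.7% of them lay wholly higher in level. The ratios compare libraries and not the abundance of 2 transcripts, since probes differ in efficiency.

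**Figure D3:**
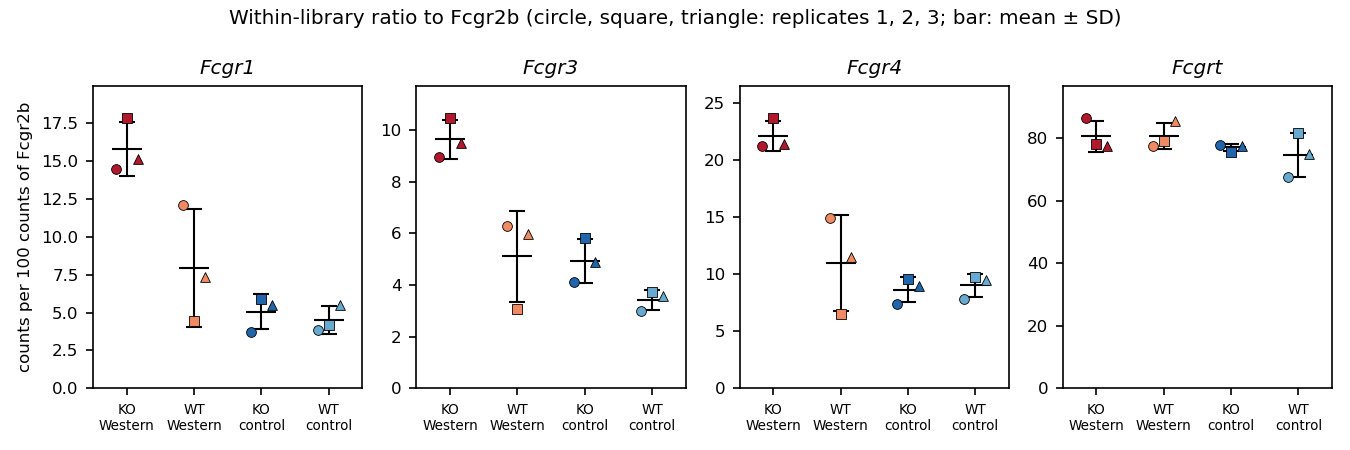
Counts of Fcgr1, Fcgr3, Fcgr4 and Fcgrt per 100 counts of Fcgr2b in the same library (y axis, from 0) in the 4 groups (x axis). Points are mice and bars are means ± SD (n = 3 per group). The KO Western-diet mice lie above all other libraries for the 3 activating receptors, and the 4 groups overlap for Fcgrt.

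On the control diet none of the 10 genes passed between knockout and wild type by limma, none had an unadjusted p under 0.05, and 2.87% of all tested genes passed. The median log2 difference was 0.01 over the 10 genes and 0.07 over all tested genes. Fcer1g had 175, 209 and 184 normalized counts in KO control-diet mice, against 181, 178 and 182 in WT control-diet mice. Syk had 106, 109 and 121 in KO control-diet mice, against 101, 120 and 104 in WT control-diet mice. Both genes overlapped between the genotypes, and so did 7 of the other 8. The exception was Fcgr3, with 103, 143 and 115 normalized counts in KO control-diet mice, against 80.8, 96.3 and 85.9 in WT control-diet mice. Its log2 difference was 0.44 (95% interval -0.08 to 0.96, adjusted p = 0.373, limma). Such a separation upwards was found for 16.1% of all tested genes. For the other 9 genes the log2 differences lay between -0.21 (Blnk) and 0.10 (Prkcd). The intervals bound the differences to different degrees, from -0.23 to 0.08 for Fcgr2b and from -0.58 to 0.74 for Fcgr1.

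Within the knockout, 8 of the 10 genes were higher on the Western than on the control diet and none was lower, and of all tested genes 45.3% passed in either direction and 37.3% as higher. The 8 were those that differed between genotypes on the Western diet, and both comparisons use the KO Western-diet libraries. The median log2 difference was 1.24 over the 10 genes and 0.27 over all tested genes. Fcgr1 had 329, 433 and 366 normalized counts on the Western diet, against 93.6, 146 and 128 on the control diet, a log2 difference of 1.62 (SE 0.30, adjusted p = 0.00121, limma). Blnk had 86.8, 93.3 and 85.0 on the Western diet, against 21.0, 33.2 and 31.6 on the control diet, a log2 difference of 1.62 (SE 0.24, adjusted p = 0.00035, limma). These 2 genes had the largest diet differences of the 10, about 3.08-fold for Fcgr1 and 3.07-fold for Blnk.

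Syk (log2 difference 1.33), Fcgr4 (1.32), Btk (1.28) and Fcer1g (1.20) followed in the knockout, then Prkcd (1.02) and Fcgr3 (0.93). Their adjusted p-values ran from 0.000144 for Prkcd to 0.00743 for Fcgr3 (limma). In all 8 genes the 3 Western-diet libraries lay above the 3 control-diet libraries, as in 45.5% of all tested genes, and all 8 passed without any single one of the 12 libraries. Fcgr2b had 2268, 2430 and 2420 normalized counts in KO mice on the Western diet, against 2502, 2462 and 2339 on the control diet. Fcgrt had 1960, 1900 and 1878 on the Western diet, against 1950, 1865 and 1818 on the control diet. Both overlapped between the diets, with log2 differences of -0.04 for Fcgr2b (95% interval -0.19 to 0.12) and 0.03 for Fcgrt (-0.13 to 0.19). Recentred on the library median, Fcgrt was at -0.70 and Fcgr2b at -0.76 in this comparison and both passed as lower, beside 50.3% of all tested genes. Under that scaling Fcgr3 (0.21, adjusted p = 0.331, limma) and Prkcd (0.29, 0.0572) did not pass. Fcgr3 also did not pass under quantile normalization (0.38, adjusted p = 0.0912, limma). With labelled age as a covariate 20.3% of all tested genes passed, and Fcgr3 did not (log2 difference 0.93, adjusted p = 0.0941, limma).

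Within the wild type, none of the 10 genes passed between the diets by limma, though 6 had an unadjusted p under 0.05, and 8.61% of all tested genes passed. The median log2 difference was 0.43 over the 10 genes and 0.09 over all tested genes. Syk had 193, 120 and 171 normalized counts in WT mice on the Western diet, against 101, 120 and 104 on the control diet. Prkcd had 259, 207 and 233 on the Western diet, against 160, 186 and 189 on the control diet. Their log2 differences were 0.55 (adjusted p = 0.0513) for Syk and 0.38 (0.0663) for Prkcd (limma), and these 2 genes and Fcgrt did not overlap between the diets, as in 15.9% of all tested genes. Fcgrt, at 2167, 2120 and 2173 on the Western diet and 1828, 2112 and 1801 on the control diet, differed by 0.17 (adjusted p = 0.168, limma).

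The wild-type diet result rests on WT Western-diet replicate 2. In that mouse Fcgr4 had 175 normalized counts, below the 212, 252 and 228 of the WT control-diet mice, while the other 2 Western-diet mice had 416 and 293. Fcer1g had 160 in that mouse, against 181, 178 and 182 in the control-diet mice. Without it 7 of the 10 genes were higher on the Western diet and none lower, with 20.8% of all tested genes passing. These were Fcgr1 (log2 difference 1.13, adjusted p = 0.0076, limma), Fcgr3 (0.89, 0.0034), Btk (0.77, 0.0228), Syk (0.74, 0.00203), Fcgr4 (0.60, 0.0168), Fcer1g (0.52, 0.00769) and Prkcd (0.47, 0.0147). Blnk was at 0.58 (adjusted p = 0.148, limma) and did not pass. The fit without it has 2 wild-type mice on the Western diet.

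**Figure D4:**
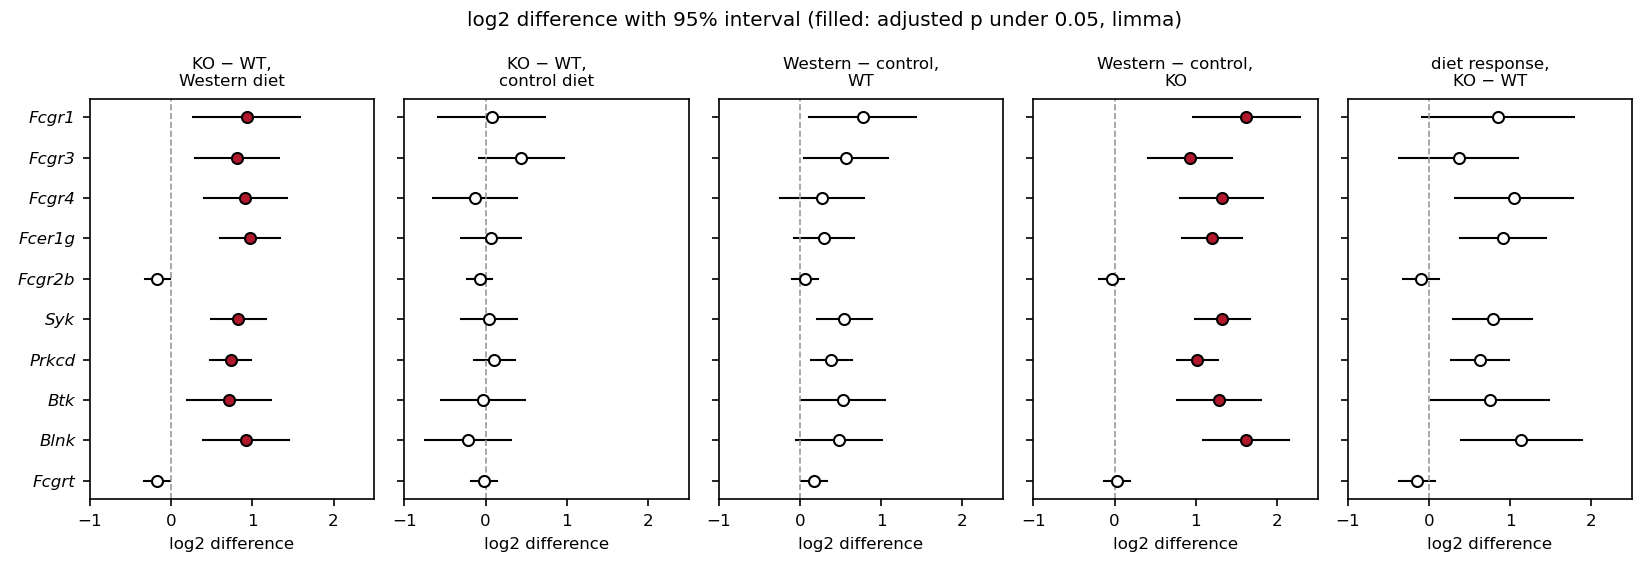
Log2 difference (x axis) of each of the 10 genes in the 5 comparisons, with 95% intervals from limma. Filled points have an adjusted p under 0.05. The 8 filled genes in the genotype comparison on the Western diet are also the 8 filled genes in the diet comparison in KO, and no point is filled in the other 3 panels.

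The diet response of the knockout minus that of the wild type was tested as an interaction. None of the 10 genes passed, 6 had an unadjusted p under 0.05 (limma), and 1.32% of all tested genes passed. The interaction was 0.91 on the log2 scale for Fcer1g (SE 0.24, adjusted p = 0.0535), 0.63 for Prkcd (SE 0.16, adjusted p = 0.0535) and 0.78 for Syk (SE 0.22, adjusted p = 0.0603). It was largest for Blnk at 1.14 (adjusted p = 0.0622) and Fcgr4 at 1.05 (adjusted p = 0.0753). For Fcgr3 it was 0.36 (95% interval -0.37 to 1.10), for Fcgr2b -0.10 and for Fcgrt -0.15. A stronger diet response in the knockout was not shown for any of the 10 genes at this threshold. The calls changed with the setting: with voom on the recovered counts 6 genes passed, beside 19.4% of all tested genes. They were Fcer1g (1.13, adjusted p = 0.026), Blnk, Fcgr4, Prkcd, Syk and Btk. Without WT Western-diet replicate 1 also 6 passed, beside 22.1% of all tested genes, and without WT Western-diet replicate 2 none passed, beside 0.883%.

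Across the 12 libraries the 8 genes other than Fcgr2b and Fcgrt varied together, with Pearson correlations of log2 levels from 0.82 to 0.98 over their 28 pairs. These share libraries and group differences, and are given as a description. As deviations from the group means the same pairs ran from 0.26 to 0.97. Fcgr2b correlated with the 8 genes at -0.38 to -0.19, Fcgrt at -0.04 to 0.15, and the 2 with each other at 0.55. The panel genes outside the 10 closest to Fcer1g were Tyrobp, which encodes another ITAM adaptor (r = 0.991), C1qb, a chain of complement C1q (0.991), and Itgb2, the beta chain of leukocyte integrins (0.989). Those closest to Syk were Tgfbi (0.987), Ifi204 (0.985) and Itgax (0.982). Fcgr2b was closest to Ctsc (0.717), Psmb7 (0.667) and Cradd (0.640), and Fcgrt to Bcap31 (0.685), C7 (0.628) and Il15ra (0.627), over 12 libraries in each case.

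Other receptors and kinases of ITAM signalling were on the panel with 14 of 24 listed genes, of which 12 were tested. On the Western diet 5 of the 12 were higher in knockout and none was lower, beside 32.2% of all tested genes passing as higher. The 5 of 12 is near that share. The genes that passed were Trem2 (log2 difference 1.75), a lipid receptor that signals through Tyrobp, Tyrobp itself (0.99), the lectin gene Clec4e (0.82), and the kinase genes Src (0.71) and Fyn (0.29). The list's median was 0.46 against 0.26 for all tested genes. Without WT Western-diet replicate 2, Tyrobp, Trem2 and Src were higher (3 of 12), beside 19% of all tested genes passing as higher. The T cell genes Zap70 (0.12, adjusted p = 0.664, limma) and Cd247 (-0.06, 0.874) did not pass. Adaptors and effectors downstream of Syk were on the panel with 7 of 28 listed genes, and none of the 6 tested passed in either direction. Card9, the adaptor that carries Syk signals to NF-kB, was at 0.54 (adjusted p = 0.0808, limma), and the kinase gene Mapk14 was at -0.13 (adjusted p = 0.253, limma). This list's median was 0.08.

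Inhibitors of ITAM signalling were on the panel with 10 of 23 listed genes, all tested, and 7 were higher in knockout on the Western diet and none lower. They included the inhibitory receptor genes Lilrb3 (log2 difference 0.78), Cd22 (0.71) and Cd5 (0.57), and Ptpn6 (0.39), which encodes the phosphatase SHP-1. Their median was 0.70, and of all tested genes 32.2% passed as higher. Without WT Western-diet replicate 2, Cd5, Lilrb3 and Lilrb4 were higher (3 of 10), beside 19% of all tested genes passing as higher. Fcgr2b, itself an inhibitor, was at -0.17 beside them. In the knockout 7 of these 10 were also higher on the Western than on the control diet, beside 37.3% of all tested genes. In the wild type 1 was, Tnfaip3 (0.96), beside 4.86% of all tested genes. On the control diet Cd5 alone was higher in knockout (0.66, adjusted p = 0.0495, limma), beside 1.99% of all tested genes. Both tested genes of the phagocyte oxidase, Cybb (0.92) and Ncf4 (0.79), were higher in knockout on the Western diet, also without WT Western-diet replicate 2.

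Among other antibody receptors and partners, 4 of 6 listed genes were measured, and Cd74 (1.26), the invariant chain of MHC class II, was higher in knockout on the Western diet. B2m, which encodes the light chain of FcRn and of MHC class I, was at 0.10 (adjusted p = 0.493, limma), while Fcgrt was at -0.17, and neither passed. Pigr, the transporter of IgA and IgM across epithelium, was at 0.20 (adjusted p = 0.141, limma) between genotypes on that diet. Pigr was lower on the Western than on the control diet in both knockout (-0.56, adjusted p = 0.000989) and wild type (-0.53, adjusted p = 0.0145, limma), while Fcgrt passed in neither.

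Markers of cell types that carry these receptors were read beside the 8 genes. Of all tested genes 32.2% passed as higher in knockout on the Western diet, and 37.3% as higher on the Western diet in knockout. All 8 measured monocyte and recruited macrophage markers, of 11 listed, were higher in knockout on the Western diet. All 8 were also higher on the Western diet in knockout. They summed to 2719 to 2971 normalized counts in KO Western-diet mice, 1000 to 1919 in WT Western-diet mice, 1324 to 1453 in KO control-diet mice and 1105 to 1174 in WT control-diet mice. Of 4 measured resident macrophage markers, of 9 listed, C1qa (log2 difference 0.85) and C1qb (0.91) were higher and Cd163 (-0.64) was lower in knockout on the Western diet. In the knockout C1qa and C1qb were higher and Marco (-0.93) and Cd163 (-1.15) lower on the Western than on the control diet. Without WT Western-diet replicate 2, 6 of the 8 monocyte markers and 2 of the 4 resident ones were higher in knockout on the Western diet and none lower. In that fit 19% of all tested genes passed as higher. The part of these cells in the results for the 8 genes was not tested.

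B cells are the cells in which Btk and Blnk are best known. All 8 listed B cell markers were on the panel and 5 were tested. Of these 1, Cd22, was higher in knockout on the Western diet, beside 32.2% of all tested genes. Ms4a1 was at 0.58 (adjusted p = 0.0591, limma), and the median of the tested markers was 0.35, against 0.26 for all tested genes. Without WT Western-diet replicate 2 no B cell marker passed. The 8 summed to 229 to 258 normalized counts in KO Western-diet mice, 184 to 233 in WT Western-diet mice, 187 to 225 in KO control-diet mice and 232 to 246 in WT control-diet mice. Their part in the Btk and Blnk results was not tested. Of 2 measured endothelial markers, of 6 listed, Cdh5 was higher in knockout on the Western diet (0.50) and Pecam1 was at 0.22 (adjusted p = 0.079, limma). They summed to 829 to 877 in KO Western-diet mice and 635 to 693 in WT Western-diet mice and Fcgr2b was at -0.17 in the same libraries. Their part in the Fcgr2b result was not tested.

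Neutrophil markers S100a8 and S100a9 were higher in knockout on both diets, while none of the 10 genes passed between genotypes on the control diet. The other 2 of the 4 tested neutrophil markers did not pass on either diet, and on the Western diet Csf3r was at 0.69 (adjusted p = 0.0643, limma) and Camp at -0.11 (0.792). Of 5 tested NK and T cell markers 1, Klrd1, was higher in knockout on the Western diet, beside 32.2% of all tested genes. No measured gene of any marker list was at 0, but log2 values cannot hold a 0, so detection of these genes was not tested. The hepatocyte products, 16 of 20 listed, summed to 134706 to 149760 in KO Western-diet mice, 138326 to 159028 in WT Western-diet mice, 169608 to 342616 in KO control-diet mice and 175470 to 182966 in WT control-diet mice.

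The authors' deposited table gives 1 comparison, knockout against wild type on the Western diet, with the test not stated. In the authors' deposited table Fcer1g was at 1.01 (adjusted p = 0.00453), Syk at 0.94 (0.00555) and Fcgr4 at 0.89 (0.0199), all as log2 fold changes. Fcgr1 was at 0.88 with an adjusted p of 0.0504 in the authors' deposited table, on the other side of the threshold from the limma fit. Fcgr2b (-0.17, adjusted p = 0.0408) and Fcgrt (-0.17, 0.0368) passed there as lower. Btk and Blnk are listed in the authors' deposited table at a fold change of 0 with a p of 1, while their deposited levels in the same workbook did not overlap between the groups.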

How the data were processed

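RNA was measured with barcoded, gene-specific probes after Trizol extraction, per the labels' protocols. The authors deposited log2 normalized counts, per the file headers and the values. The way in which the authors set sample factors was not given in the sources used here. Within a library 100% of the deposited values were whole multiples of 1 factor (tolerance 0.001). Here they were made linear, and log2(value + 1) was analysed, which understates changes of low genes. The design had taken the deposited values as possibly linear. The authors deposited p-values and log2 fold changes for 1 comparison.

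Of 547 genes, 453 averaged 20 or more normalized counts and were tested, and 94 were not. All 12 libraries entered 1 limma fit (version 3.58.1, R 4.3.3) with group means and eBayes with a variance trend. Two-sided p-values were adjusted over all tested genes (Benjamini-Hochberg, threshold 0.05). The procedure was tested on simulated data with independent noise for each gene. Shifts shared by many genes of a library were not simulated, so error rates under such shifts were not tested. Labels do not say whether samples came from separate litters or cages. A diet duration label that runs from 16 to 27 weeks, 1 per mouse in deposited order, was not used. The members, gene lists, cell type markers and alternatives were chosen with earlier results of these data known. All 10 members are drawn in a figure for every comparison, and the text does not name each of them in each comparison. From each pathway list the genes with the smallest p on the Western diet are named, and the 3 genes nearest to Fcer1g, Syk, Fcgr2b and Fcgrt. Genes named beyond these (Zap70, Cd247, Tnfaip3 and the cell type markers) were chosen after their values were seen. Counts over the gene lists without WT Western-diet replicate 2 were added after seeing the data. Results of 2 listed genes are not reported here. Promoter sequences are RefSeq's, build GRCm38.p6.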

Additional observations from a re-analysis of the deposited data

How the results depend on the processing

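The genotype difference on the Western diet (8 genes passed) fell to 3 with libraries recentred on the library median (1 higher, 2 lower). The value table, with columns shifted by 1 animal, gave 0 there and 0 for the diet difference in KO, against 8 each. With those shifted columns 0% of all tested genes passed in both comparisons, against 35.5% and 45.3%. These counts of 0 are therefore not particular to the 10 genes. The diet difference in WT (0) gave 1 under the median ratio, and 7 without both WT Western-diet replicate 2 and KO control-diet replicate 2 (8.39% and 25.2% of all tested genes). The interaction (0) gave 2 with a pseudocount of 10 (5.08% of all tested genes passing, against 1.32%), 1 under the median ratio (8.17%), 2 lower under the library median (14.6%), 1 under quantile normalization (5.96%), 6 with voom (19.4%) and 1 without both those libraries (1.32%). The cause was not tested.

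Leaving out 1 library at a time gave 3 to 9 genes for the genotype difference on the Western diet, lowest without KO Western-diet replicate 2. It gave 0 to 0 on the control diet, 0 to 7 for the diet in WT (7 without WT Western-diet replicate 2), 8 to 8 for the diet in KO and 0 to 6 for the interaction. In the interaction 6 passed without WT Western-diet replicate 1 and 1 without KO control-diet replicate 1, beside 22.1% and 12.8% of all tested genes. Of single genes, Fcgrt changed direction in the diet difference in KO, -0.70 under the library median against 0.03. No paired analysis was possible because the replicate numbers only name the mice. Counts of 20 to 110 for Blnk and 24 to 101 for Btk limit the precision of these genes.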
